A study of Mus musculus with 54 samples.

Results

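Macrophages at the borders of the brain were compared with and without systemic lipopolysaccharide (LPS) in mice labelled Ccr2-/-. The 6 libraries compared, of 54 in the series, were the subdural CNS-associated macrophages (sdCAMs, which line the leptomeninges and the spaces around vessels) of 3 mice given Vehicle and LPS and of 3 untreated mice given PBS. They were chosen by the population in the library name, because the titles of the Ccr2-/- libraries after LPS name the other population (a library named V1m_CAM is titled V1m_MG) while the cell type label and the library name agree. The mice are called V1m, V2m and V4f after LPS and 1m, 3m and 5f without it, and values are given in that order within each group, the untreated group first unless stated otherwise. Each library came from 1 mouse, each group held 2 mice marked m and 1 marked f, and all 6 libraries carried the same batch label.

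Both groups carried a germline Ccr2 knockout (B6.129S4-Ccr2tm1Ifc/J), which in every cell of the animal removes the receptor that monocytes need to leave the bone marrow. The LPS mice had been gavaged with Vehicle, the carrier of a CSF1 receptor inhibitor given to other groups, and received LPS 8 weeks after that treatment. The untreated mice had no gavage and received PBS. Cells were sorted 12 h after the injection from perfused brain without the choroid plexuses. Vehicle and LPS changed together between the groups and cannot be told apart, and "after LPS" below stands for both. The labels give no age.

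Border macrophages sit outside the brain parenchyma, where they take up debris and blood-borne material through scavenger and lectin receptors, break it down in lysosomes and present antigen. LPS is bound by CD14 and by the complex of TLR4 and MD-2 (gene Ly96). One branch of the signal runs through the adaptor MyD88 to the transcription factor NF-kappaB and its cytokine and chemokine targets, and the other through TRIF (gene Ticam1) to interferon regulatory factors, interferon beta and the interferon-stimulated genes. Both branches switch on their own inhibitors.

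Between 7887891 and 9926957 reads were counted per library, and pairs of libraries of the same group correlated at r = 0.940 to 0.952 across genes on the log2 scale. Ccr2 itself, the targeted gene, lay at 3.02, 2.46 and 5.59 CPM (counts scaled by the total of the library) without LPS and at 5.32, 2.92 and 3.17 CPM after it. In WT sdCAMs it lay at 42.96, 16.83 and 34.21 CPM without LPS and at 0.26, 0 and 0.15 CPM after LPS. Without LPS the order of the genotypes is that of the labels, and after LPS it is the reverse (exact permutation test, two-sided, p = 0.1 each and 0.1 adjusted over both, the smallest that 3 against 3 can give). The mice are therefore named by their label below, and whether the counted reads lie outside the deleted part of the gene was not tested.

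Border macrophage markers (Mrc1, Pf4, Cd163, Lyve1, F13a1, Cbr2, Stab1, Ms4a7 and Clec12a) summed to 19900.0 to 20900.0 normalised CPM without LPS and 7840.0 to 8350.0 after it, and 6 of the 9 fell. Microglial markers (7 genes, among them P2ry12 and Tmem119) summed to 2130.0 to 3300.0 and 509 to 802, and their median level was 5.32% to 7.84% of that in the microglia (MG) of the same mouse without LPS and 5.17% to 9.77% after it. The monocyte list (8 genes) went from 2.44 to 9.23 to 314 to 453 normalised CPM, with Hp a large part of it, and 5 of its 7 tested members rose. Of its defining markers Chil3 was at 0 in all 6 libraries, Ly6c2 was at 0 without LPS and reached 2.74 normalised CPM after it, and Plac8 reached 2.63. The calls of Ly6c2 and Plac8 rested on single libraries: the adjusted p of Ly6c2 was 0.0784 to 0.131 without any 1 of 1m, 3m, 5f, V2m or V4f, and that of Plac8 0.0746 to 0.125 without any 1 of 1m, 3m, 5f or V2m. Neutrophil markers (10 genes) summed to 82 to 139 and 113 to 185, with Retnlg and Ly6g at 0 in every library. Nearly all of the untreated sum was Mmp9, which was called lower at the fold limit (111, 137 and 79.5 to 34.1, 67.3 and 62.1, adjusted p = 0.0534 to 0.17 without any 1 of 1m, 3m, V1m, V2m or V4f), while the other tested members rose, S100a8 from 2.29, 1.39 and 0.9 to 60.2, 70.4 and 91.5 and Mmp8 from 0.1, 0 and 0 to 16.6, 18.3 and 28.4. The dendritic cell list (6 genes) went from 428 to 625 to 74.3 to 157, most of it Cd209a (462, 395 and 592 to 61.7, 106 and 146), with 2 of 3 tested members lower (Cd209a and Zbtb46) and Clec9a at 0. T cell and natural killer cell markers were at or near 0 throughout. The B cell list (6 genes) was almost wholly Ighm and went from 373 to 492 to 27.6 to 33, with Cd79a and Igkc at 0. The astrocyte list (5 genes) went from 46.2 to 62.6 to 141 to 198 through Gja1. Oligodendrocyte markers summed to 163 to 599 and 159 to 399 with 0 of 5 called, and the endothelial, mural, fibroblast, neuronal, choroid plexus and erythroid lists to at most 48.5 in any library, with 1 fibroblast and 1 endothelial member higher. The part of any of these cells in the results below was not tested. In bulk samples, fewer cells of a type and less RNA per cell cannot be told apart.

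A gene counts as called here if its Benjamini-Hochberg adjusted p in edgeR's quasi-likelihood test was below 0.05 and its log2 fold change, after LPS over untreated, exceeded 1 in either direction. A gene described as not called missed 1 or both of these limits, which does not show that it did not differ. Levels are CPM scaled between libraries by TMM factors (normalised CPM), which do not correct for gene length and are compared here between libraries and not between genes. By that rule 21.5% of the 11941 genes tested were called, 10.9% higher and 10.6% lower, and the median log2 fold change of all genes was -0.045 (on the log2 scale). The called genes made up a large share of the RNA. Those called higher took 8.35% to 8.72% of all counts without LPS and 38.2% to 39% after it, and those called lower took 34.1% to 35% and 8.57% to 9.08%. In 164 of the genes called higher each untreated library held 3 counts or fewer, and for such genes the text gives a bound on the fold, computed with 3 counts per untreated library, in place of a fold change. With such genes at their bound, in either direction, 208 genes rose and 125 fell by more than 16-fold, and 58 rose and 13 fell by more than 64-fold. Without them the numbers were 134 and 100, and 34 and 9. The 42 gene lists used below hold 703 genes, of which 667 had enough counts to be tested, 264 were called higher and 122 lower. The lists were chosen with earlier results of these data known, so their order among each other is descriptive only.

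**Figure D1:**
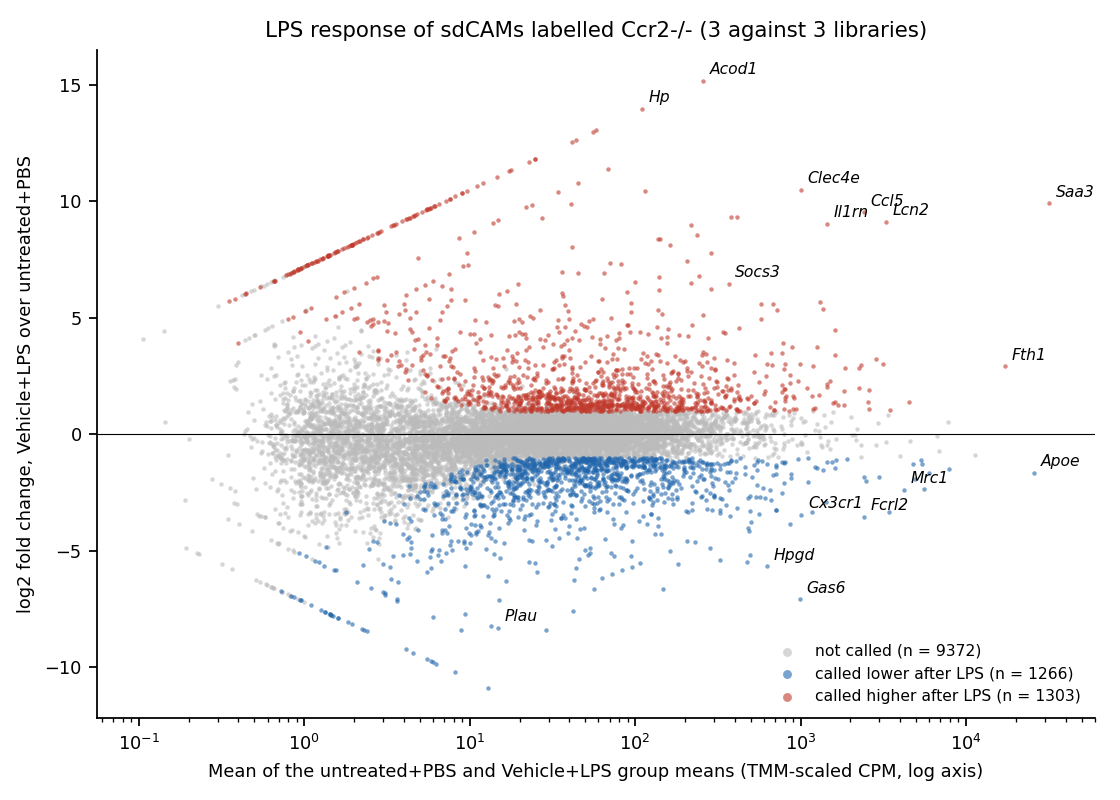
Each point is 1 of 11941 genes, with the mean of the untreated+PBS and Vehicle+LPS group means (normalised CPM, log axis) on the x axis and the log2 fold change of Vehicle+LPS over untreated+PBS on the y axis, for 3 against 3 sdCAM libraries labelled Ccr2-/-. Red points (1303) were called higher and blue points (1266) lower. The fitted values of genes at or near 0 counts in 1 group depend on the prior count of the fit and are not folds.

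**Figure D2:**
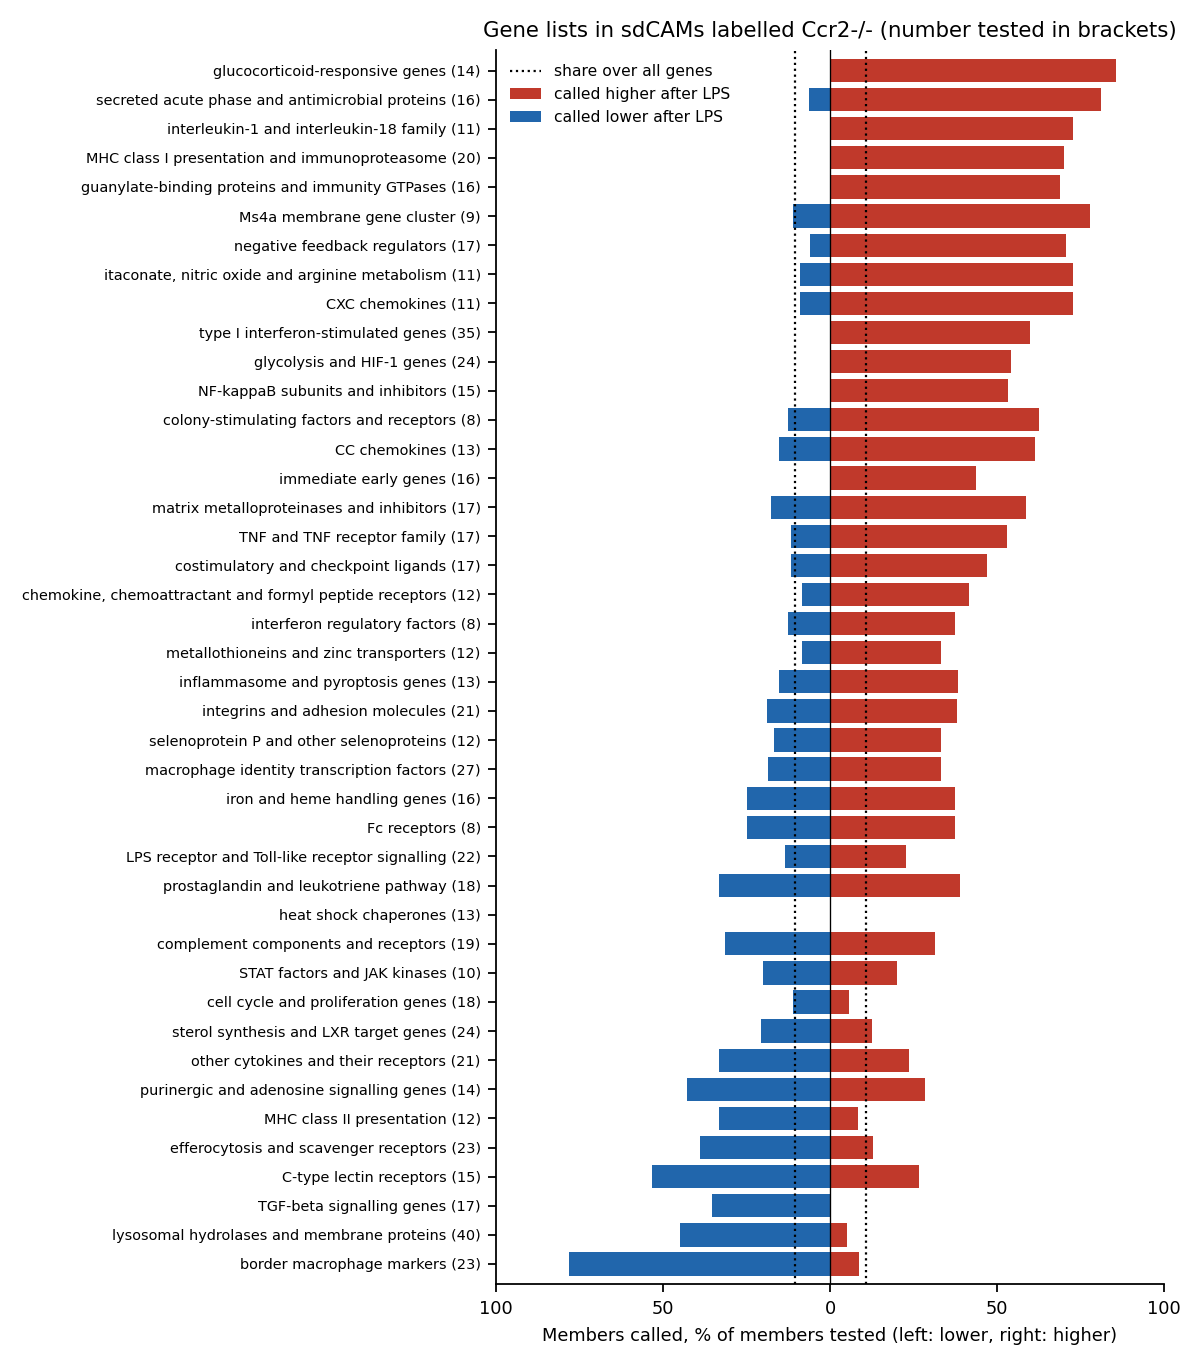
Bars give the percentage of the tested members of each of 42 gene lists that were called higher (red, to the right) or lower (blue, to the left) after LPS, with the number tested in brackets and dotted lines at the shares over all genes (10.9% and 10.6%). The glucocorticoid-responsive list stands at the top (12 of 14 higher) and the border macrophage list at the bottom (18 of 23 lower).

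The genes of the proteins that sense LPS did not move together. Of 22 receptor and adaptor genes, 5 rose (22.7%) and 3 fell (13.6%), with a median log2 fold change of 0.39. Over all genes tested the shares were 10.9% and 10.6%. Tlr4, the signalling receptor, lay at 384, 362 and 409 normalised CPM without LPS and 175, 136 and 159 after it, all 3 libraries after LPS below all 3 without (log2 fold change -1.30, SE 0.16, adjusted p = 4.67e-05). Cd14, the coreceptor that hands LPS to it, moved the other way, from 480.0, 524 and 573 to 2272, 2677 and 2105 (log2 fold change 2.16, SE 0.15, adjusted p = 4.75e-07). The adaptors Myd88 (1.67), Tirap (1.29) and Ticam1 (1.79) and the lipoprotein receptor Tlr2 (1.39) also rose, while Cd180 (-2.43) and its partner Ly86 (-1.68), a TLR4-like pair that dampens LPS signalling, fell. The kinases Irak1, Irak2 and Irak4 and the ligase Traf6 lay between -0.65 and 0.57 on the log2 scale and were not called.

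Among NF-kappaB genes most IkappaB inhibitors and both noncanonical subunits were higher. Of 15 members 8 rose and 0 fell (median log2 fold change 1.10). Nfkbia, which encodes the inhibitor IkappaB-alpha and is itself an NF-kappaB target, lay at 111, 89.6 and 117 normalised CPM in the untreated libraries and at 1159, 1243 and 1231 after LPS (log2 fold change 3.51, SE 0.16, adjusted p = 1.72e-08). Nfkb2 went from 43.5, 42.7 and 44.9 to 231, 223 and 187 (log2 fold change 2.29, SE 0.16, adjusted p = 6.74e-07), and Relb, its usual partner, rose by 1.96 on the log2 scale. Nfkbib (2.12) and Nfkbie (1.09, with an adjusted p of 0.0760 without 1m and 0.0891 without V2m) rose and Nfkbid was not called (1.10). The groups did not overlap for Nfkbia, Nfkb2 or Relb, and 48.3% of all genes tested had no overlap. The subunits Rela (0.16), Rel (-0.34) and Nfkb1 (-0.42) were not called. Ikbke, an IkappaB-related kinase of the interferon branch, was near 0 without LPS (1.87, 0 and 1.8 normalised CPM) and stood at 365, 570.4 and 485 after it (log2 fold change 8.56, SE 0.52, adjusted p = 1.88e-07), whereas the related Tbk1 was not called (0.38).

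Of 17 negative regulators 12 rose and 1 fell, with a median log2 fold change of 2.37. Socs3, which blocks gp130 cytokine signalling, lay at 7.58, 8.59 and 8.44 without LPS and 734, 666 and 777 after it (log2 fold change 6.47, SE 0.22, adjusted p = 3.5e-09). Tnfaip3, the ubiquitin editor A20, went from 26.5, 31.3 and 35.4 to 600.3, 734 and 618 (log2 fold change 4.39, SE 0.21, adjusted p = 2.99e-08). Dusp1, a phosphatase of p38 and JNK, went from 24.1, 22.1 and 36.5 to 1208, 1534 and 1281 (log2 fold change 5.61, SE 0.34, adjusted p = 1.89e-07). In all 3 genes the spread within each group was small beside the gap between the groups. Irak3, a decoy of the MyD88 kinases (4.21), Tnip1 (2.83), Zc3h12a, an RNase of cytokine transcripts (2.65), and Dusp2 (6.92) rose too. Tnip3 was at or under 3 counts in each untreated library and at least 51.9-fold higher after LPS. The member that fell was Tnfaip8l2 (-1.41), and Cyld and Otulin, which remove ubiquitin chains, were not called (-0.29 and -0.10).

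Promoter sequences of 2 of these genes are shown because they hold the kappaB motif searched for (GGGA, any base, then TTTCC, on either strand, in the 250 bases before the start of the gene). They are from RefSeq, assembly GRCm38.p6, are written 5′ to 3′ on the strand of the gene, and carry the match in capitals. The Nfkbia stretch is chr12:55492652-55492691 (minus strand, bases 44 to 5 before the start) and the Nfkb2 stretch is chr19:46305690-46305729 (plus strand, bases 240 to 201).
Nfkbia: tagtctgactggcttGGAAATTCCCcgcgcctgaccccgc
Nfkb2: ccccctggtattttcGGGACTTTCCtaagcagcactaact
Of the 20 genes of the NF-kappaB and feedback lists called higher, 18 matched a promoter entry and 2 of these held the motif. It was held by 1 of 9 matched members not called and by 0.414% of all 27025 genes with a promoter entry. Over all matched genes called higher after LPS the share was 1.06%, against 0.511% of those called lower. A match is a string of letters and not a measured binding site.

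In the interleukin-1 family both cytokines, the receptor antagonist and several receptor chains were higher. Of 11 members tested 8 rose and 0 fell (median log2 fold change 2.90). Il1b, the secreted cytokine, lay at 10.4, 1.74 and 4.95 normalised CPM without LPS and 106, 112 and 95.8 after it (log2 fold change 4.19, SE 0.56, adjusted p = 0.00012). Il1a went from 4.88, 14.7 and 13.4 to 78.2, 91.3 and 77.3 (log2 fold change 2.91, SE 0.35, adjusted p = 4.71e-05). The receptor antagonist Il1rn rose by 9.03 on the log2 scale. Il1r2, a decoy receptor, was at or under 3 counts in every untreated library, stood at 40.9, 62 and 59.8 after LPS and was at least 163-fold higher. The signalling receptor Il1r1 (19.4, 25.2 and 44.1 after LPS, at least 88.8-fold higher) and Il18rap, a chain of the IL-18 receptor (117, 85 and 67.6, at least 271-fold higher), were likewise close to undetected without LPS. The receptor chain Il1rap rose by 1.95 on the log2 scale. Il18 was not called (-0.01), but its soluble antagonist Il18bp rose (2.00).

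Other cytokine genes went both ways, 5 of 21 higher and 7 lower. Il6 lay at 1.66, 2.32 and 0 without LPS and 27.2, 21.1 and 28.1 after it (log2 fold change 4.25, SE 0.81, adjusted p = 0.00173). Il15ra, which presents IL-15 to lymphocytes, went from 7.9, 9.17 and 2.48 to 239, 335 and 229 (log2 fold change 5.36, SE 0.38, adjusted p = 6.34e-07), while Il15 itself fell by 1.94 on the log2 scale. Both chains of IL-27, Il27 (2.95) and Ebi3 (2.04), rose. Il10 was low in every library (0, 4.06 and 4.5 and 4.19, 10.4 and 4.8) and not called, and its receptor chain Il10rb fell (-1.83). Il12b was detected in V1m alone (36.4 normalised CPM, 0 in the other 5 libraries), and Il12a and Ifnb1 had 0 counts in all 6. Receptors that fell included Il21r (-2.30), Il13ra1 (-1.46) and Ifngr1 (-1.01). Single libraries decided some of these calls: the adjusted p of Il15 was 0.075 without 3m, 0.0621 without 5f and 0.0596 without V1m, and that of Il10rb was 0.0700 to 0.124 without any 1 of 1m, 5f, V1m or V2m. Without 5f, or without V1m, only 4 members of the list were called lower. The log2 fold change of Ifngr1 lay between -0.955 and -0.999 without any 1 of 1m, 5f, V1m or V4f.

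Tnf lay at 12.8, 11.1 and 9.01 normalised CPM in the untreated libraries and at 53.8, 64.2 and 55.1 after LPS (log2 fold change 2.39, SE 0.31, adjusted p = 9.3e-05). In its family 9 of 17 members rose and 2 fell (median log2 fold change 1.16). Tnfrsf9, the receptor 4-1BB, was at 0, 0 and 2.59 without LPS and 389.8, 369.7 and 550.5 after it, and Traf1, an adaptor that binds it, at 0, 0 and 2.59 and 120.5, 154 and 146. Neither group overlapped the other (log2 fold change 8.98, SE 0.85, adjusted p = 6.74e-06 for Tnfrsf9 and log2 fold change 7.34, SE 0.78, adjusted p = 1.75e-05 for Traf1). Cd40 (2.48), Fas (3.70) and Tnfrsf1b (1.16) rose and Tnfrsf1a was not called (0.22).

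Of 8 colony-stimulating factor and receptor genes tested 5 rose and 1 fell (median log2 fold change 1.34). Csf3, which encodes G-CSF, had no count in the untreated libraries and lay at 113, 112 and 106 after LPS, at least 332-fold higher. Csf1 rose by 1.79 on the log2 scale. Csf1r, the receptor on which tissue macrophages depend, lay at 9544, 8558 and 8968 without LPS and 2707, 3078 and 2834 after it (log2 fold change -1.65, SE 0.13, adjusted p = 1.67e-06). The shared receptor chains Csf2rb (1.52) and Csf2rb2 (1.76) and the G-CSF receptor Csf3r (1.17) rose.

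CC chemokines rose in 8 of 13 tested members and fell in 2, with a median log2 fold change of 3.44, or 2.97 with the genes undetected without LPS set to their bound. Ccl5, an attractant of T cells and monocytes, lay at 10.6, 3.48 and 5.29 normalised CPM without LPS and 4652, 5043 and 4768 after it (log2 fold change 9.53, SE 0.38, adjusted p = 8.38e-09). Ccl9 went from 109, 137 and 138 to 1429, 1450.0 and 1398 (log2 fold change 3.48, SE 0.16, adjusted p = 1.72e-08) and Ccl4 from 7.9, 7.43 and 8.11 to 121, 106 and 118 (log2 fold change 3.88, SE 0.28, adjusted p = 6.47e-07). These 3 genes were even across the libraries of each group. The ligands of CCR2 moved less: Ccl2 rose from 52.8, 76 and 65.8 to 155, 91.6 and 168 (log2 fold change 1.09, SE 0.32, adjusted p = 0.0216), Ccl7 rose by 1.06 on the log2 scale and Ccl12 was not called (400.3, 677 and 453 and 752, 593 and 604, log2 fold change 0.35, SE 0.21, adjusted p = 0.24). In Ccl7, library V2m after LPS (233) lay close to the highest untreated library (231). The call of Ccl2 was lost without any 1 of 1m, 5f, V1m or V4f (adjusted p = 0.0567 to 0.0865), and that of Ccl7 without any library but V2m (0.0664 to 0.143) and in DESeq2 (0.0641). Ccl8 (-1.13) and Ccl24 (-1.24), chemokines of resting border macrophages, fell, and missed a limit without 1m (Ccl8, log2 fold change -0.89) or without V1m (Ccl24, adjusted p = 0.0521).

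Of 11 CXC chemokines tested 8 rose and 1 fell (median 4.60, or 4.14 at the bounds). Cxcl2, a neutrophil attractant, went from 0.31, 4.53 and 2.25 to 426, 439 and 366 (log2 fold change 7.46, SE 0.53, adjusted p = 6.34e-07). Cxcl13, a B cell attractant, went from 4.26, 3.37 and 0 to 396, 693 and 635 (log2 fold change 7.80, SE 0.64, adjusted p = 2.05e-06). Among the interferon-inducible ligands of CXCR3, Cxcl10 rose from 9.97, 1.97 and 13.8 to 148, 122 and 185 (log2 fold change 4.14, SE 0.54, adjusted p = 9.36e-05), and Cxcl9 rose by 4.60 on the log2 scale. Pf4, the platelet factor that marks border macrophages, was the member that fell (-1.20).

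Receptors for chemoattractants split, with 5 of 12 tested members higher and 1 lower. Fpr1 and Fpr2, receptors for formylated bacterial peptides, rose, Fpr1 from 90.2, 198 and 121 to 2953, 3361 and 2920.1 (log2 fold change 4.49, SE 0.27, adjusted p = 1.68e-07) and Fpr2 by 6.26 on the log2 scale. C5ar1 (1.37) and Ccrl2 (2.00) rose as well. Cx3cr1, the fractalkine receptor, lay at 1846, 1628 and 2088 without LPS and 152, 144 and 209 after it (log2 fold change -3.46, SE 0.23, adjusted p = 3e-07). Ccr1 was not called (-0.51).

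Secreted acute phase and antimicrobial genes had the highest median of the 42 lists, 7.77 on the log2 scale and 4.57 with undetected genes at their bound, with 13 of 16 tested members higher and 1 lower. Saa3, a serum amyloid A protein made by macrophages, lay at 93.9, 1.39 and 102 normalised CPM without LPS and 61204, 70161 and 60121 after it, and its reads can be shared with the related Saa1 and Saa2. Mouse 3m had far less of it than the other untreated mice, and the groups were far apart (log2 fold change 9.92, SE 1.08, adjusted p = 2.16e-05). Lcn2, a protein that binds bacterial iron carriers, went from 22.2, 0 and 12.8 to 6301, 6474 and 6835 (log2 fold change 9.12, SE 0.93, adjusted p = 1.21e-05). Hp, the haemoglobin scavenger haptoglobin, had no count without LPS, stood at 139, 341 and 178 after it and was at least 660.0-fold higher. Saa1 (at least 150.0-fold), Saa2 (at least 34.6-fold) and the pentraxin Ptx3 (at least 33.2-fold) were also at 0 without LPS. S100a8 rose from 2.29, 1.39 and 0.9 to 60.2, 70.4 and 91.5 (log2 fold change 5.58, SE 0.59, adjusted p = 1.73e-05), whereas its usual partner S100a9 had at most 7 counts in any of the 6 libraries. Lyz2, lysozyme, was the member that fell (-1.25).

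**Figure D3:**
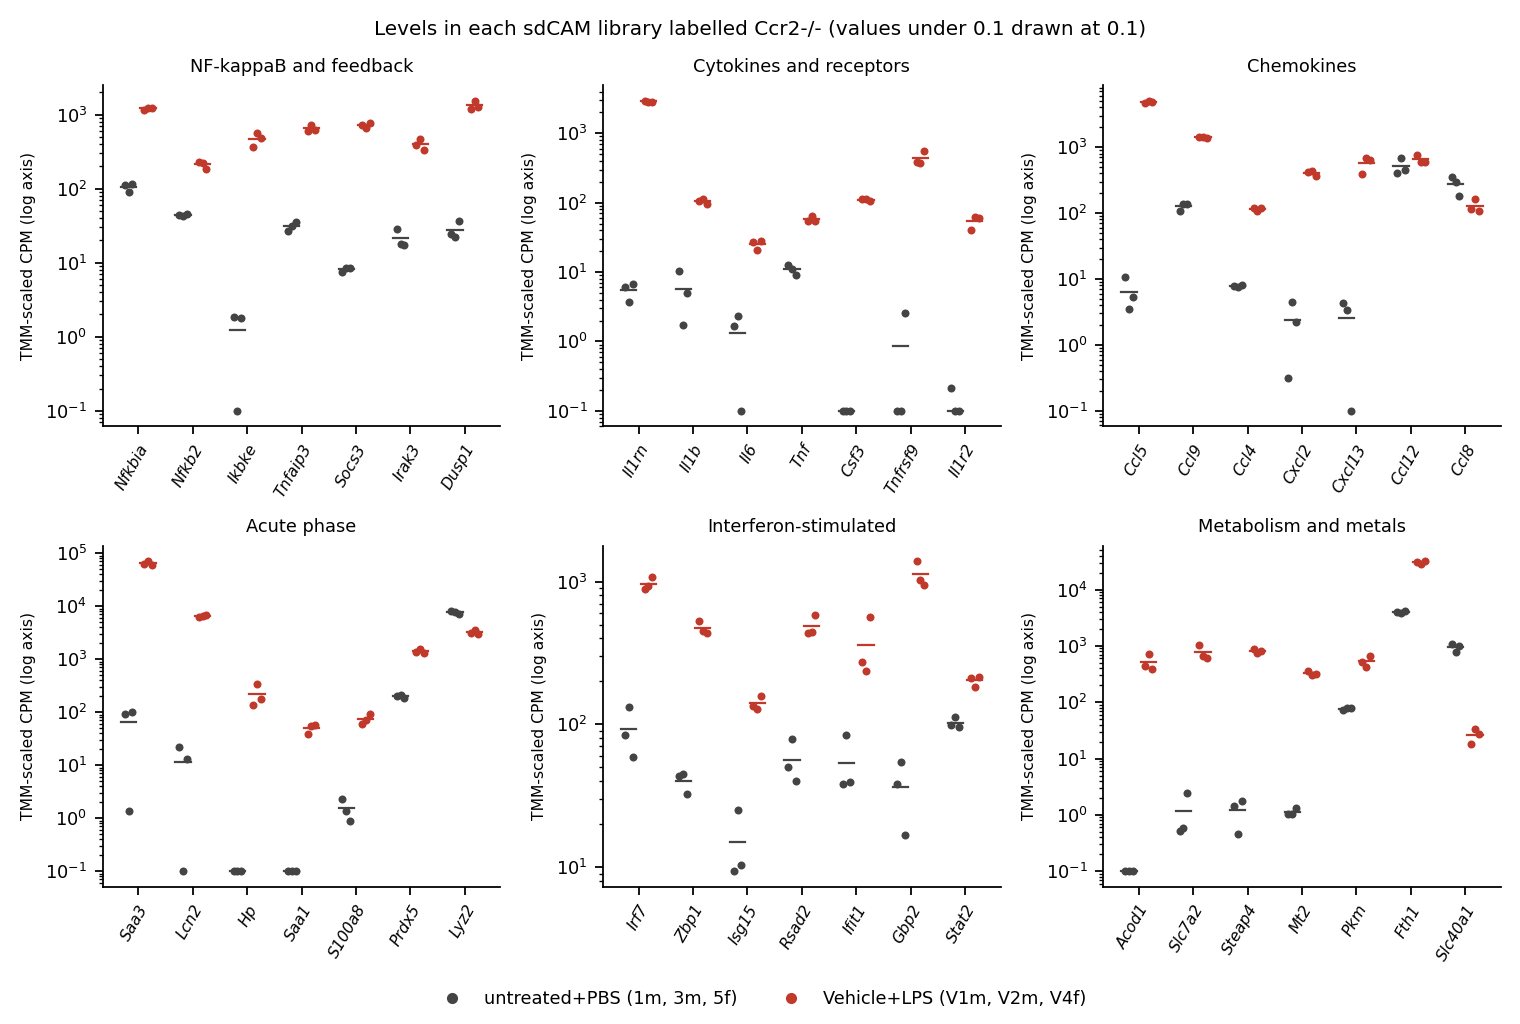
Points are single sdCAM libraries labelled Ccr2-/-, 3 untreated+PBS (dark) and 3 Vehicle+LPS (red), with the group mean as a bar, for 42 genes in 6 panels (normalised CPM, log axis, values under 0.1 drawn at 0.1). In Socs3, Il1rn, Ccl5, Lcn2 and Acod1 every red point lies far above every dark one, whereas Ccl12 overlaps and Ccl8, Lyz2 and Slc40a1 lie lower in red.

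Interferon-stimulated genes rose with a lower median than the chemokine lists. Of 35 members 21 rose and 0 fell, with a median log2 fold change of 1.30. Irf7, the amplifier of the interferon response, lay at 84.7, 133 and 58.9 without LPS and 893, 932 and 1077 after it (log2 fold change 3.39, SE 0.25, adjusted p = 9.08e-07). Zbp1, a sensor of left-handed nucleic acid, went from 43.3, 45 and 32.3 to 527, 447 and 438 (log2 fold change 3.55, SE 0.19, adjusted p = 7.4e-08), and Isg15, a ubiquitin-like protein, from 9.35, 25.3 and 10.4 to 134, 128 and 158 (log2 fold change 3.23, SE 0.36, adjusted p = 2.62e-05). In none of these did the groups overlap. Ifit1 lay at 38.2, 83.7 and 39.4 and 272, 237 and 568 (log2 fold change 2.74, SE 0.40, adjusted p = 0.000239), with V4f above the other LPS libraries and 3m above the other untreated ones. Library 3m was also the highest untreated one for Isg15, Rsad2, Oas1a, Oasl2, Rtp4 and Irf7. Ifit2 (0.92), Ifit3 (1.05), Stat2 (0.98), Irf9 (0.36) and Bst2 (0.28) were not called. Without 3m, Ifit2 (1.40), Ifit3 (1.60) and Stat2 (1.06) were called, as was Stat2 without V2m (1.05).

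The promoters of Isg15, Ifit1 and Oas1a, genes of this list that rose, are shown because each holds more than 1 match to the core of the interferon-stimulated response element (TTTC, any 2 bases, then TTTC, on either strand, 250 bases before the start, overlapping matches counted separately). Source, orientation and capitals are as above. The Isg15 stretch is chr4:156200860-156200911 (minus strand, bases 93 to 42 before the start, 3 matches), the Ifit1 stretch chr19:34640770-34640828 (plus strand, bases 119 to 61, 2 matches) and the Oas1a stretch chr5:120907526-120907560 (minus strand, bases 35 to 1, 2 matches).
Isg15: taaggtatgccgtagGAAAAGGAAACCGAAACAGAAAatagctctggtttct
Ifit1: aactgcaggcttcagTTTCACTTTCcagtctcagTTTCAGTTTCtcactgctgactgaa
Oas1a: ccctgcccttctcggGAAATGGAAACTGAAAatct
Of the 21 members that rose 15 matched a promoter entry and 6 of these held the motif (Ifit1, Isg15, Oas1a, Oas3, Rsad2 and Slfn8), as did 6 of 10 matched members that were not called. Over all genes with a promoter entry the share was 3.46%, and over all matched genes called higher after LPS it was 6.67%, against 2.86% of those called lower.

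The interferon-inducible GTPases rose in 11 of 16 tested members and fell in 0 (median log2 fold change 1.80). Gbp2, a guanylate-binding protein that coats bacteria, lay at 38.2, 54.7 and 16.8 and 1388, 1034 and 944 (log2 fold change 4.94, SE 0.38, adjusted p = 1.09e-06). Igtp (1.62), Irgm1 (1.48) and Iigp1 (1.98) rose, and Irgm2 was not called (-0.14). Library V1m was the highest LPS library for Gbp2, Gbp3, Gbp4, Gbp5, Gbp6, Gbp9, Igtp and Iigp1. Of the 8 interferon regulatory factors Irf7, Irf1 (1.06) and Irf2 (1.03) rose. Irf4 fell from 20.9, 25.9 and 27.7 to 0, 2.63 and 1.32 (log2 fold change -4.20, SE 1.09, adjusted p = 0.0119), and Irf8 (-0.42) and Irf5 (0.20) were not called. Of 10 JAK and STAT genes 2 rose and 2 fell. Jak2 (1.80) and Stat3 (1.04) rose, and Stat6 (-1.07) and Stat5b (-1.18) fell. Several of these lay close to the fold limit and under it without 1 library: Irf1 without 5f (0.90) or V1m (0.91), Irf2 without 1m (0.90) or V2m (0.995), Stat3 without 5f (0.92) and Stat6 without V1m (-0.98) or V4f (-0.95).

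Genes of antigen presentation by MHC class I rose, 14 of 20 members with 0 lower (median log2 fold change 1.20). Tap1, a subunit of the peptide transporter of the endoplasmic reticulum, went from 128, 125 and 81.6 to 790.4, 548 and 482 normalised CPM (log2 fold change 2.44, SE 0.23, adjusted p = 6.76e-06), and the proteasome activator Psme2 from 103, 136 and 106 to 747, 682 and 612 (log2 fold change 2.56, SE 0.16, adjusted p = 2.39e-07). H2-K1 rose by 1.25 on the log2 scale, and H2-D1 (0.82) and B2m (0.53) were not called. MHC class II went the other way, with 4 of 12 members lower and 1 higher (median -0.99). The peptide editors H2-DMa and H2-DMb1 fell, H2-DMa from 184, 131 and 100.2 to 22.9, 24.4 and 17.7 (log2 fold change -2.68, SE 0.28, adjusted p = 1.56e-05) and H2-DMb1 by 2.49 on the log2 scale. Ciita, the master activator of the class, was at 6.44, 9.63 and 1.69 without LPS and at or under 3 counts per library after it. The class II chains overlapped or nearly so, H2-Aa (748, 441 and 306 and 219, 323 and 103, log2 fold change -1.21, SE 0.41, adjusted p = 0.0428), H2-Ab1 (-0.55) and Cd74 (0.21), with 1m the highest untreated library and V2m the highest LPS library for all 3. The dendritic cell list, given above, was lower in the same libraries. The call of H2-Aa was lost without any 1 of 1m, 3m, V1m or V4f (adjusted p = 0.0688 to 0.212) and in DESeq2 (0.0557), that of Ciita was lost without 3m (0.0532), and without 3m only 2 members of the list were called lower. Marchf1, a ligase that removes class II from the surface, rose (1.87).

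Among costimulatory and checkpoint genes 8 of 17 rose and 2 fell. Cd274, which encodes PD-L1, went from 19, 9.98 and 7.32 to 147, 84 and 89 (log2 fold change 3.13, SE 0.42, adjusted p = 0.000114), and Cd47, the signal that restrains phagocytosis, from 439, 459.7 and 422 to 1965, 1661 and 1574 (log2 fold change 1.98, SE 0.20, adjusted p = 1.04e-05). Its receptor Sirpa went from 2018, 1750.1 and 1777 to 685, 669.7 and 679 (log2 fold change -1.45, SE 0.16, adjusted p = 2.73e-05). Slamf7 (4.39), Slamf8 (3.28) and Slamf9 (3.16) rose, Cd200r1 fell (-2.09), and Cd80 (0.49) and Cd86 (-0.04) were not called. Of 13 inflammasome genes 5 rose and 2 fell. Nlrp3 (1.52), the adaptor Pycard (2.09), Casp4, the intracellular LPS sensor (2.70), and the pore former Gsdmd (1.23) rose, Nlrc4 fell (-1.35) and Casp1 was not called (-0.03).

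The genes that mark resting border macrophages fell. Of 23 members 18 were lower and 2 higher, with a median log2 fold change of -1.83, and the list includes genes by which this population is defined. Mrc1, the mannose receptor CD206 used to sort these cells, lay at 7371, 6565 and 7222 normalised CPM without LPS and 1443, 1374 and 1273 after it (log2 fold change -2.37, SE 0.17, adjusted p = 7.39e-07). Stab1, a scavenger receptor, fell by 2.92 on the log2 scale. Lyve1, the hyaluronan receptor, went from 919, 1301 and 936 to 142, 149 and 187 (log2 fold change -2.72, SE 0.37, adjusted p = 0.000148) and Cd209f, a lectin, from 529.9, 754 and 621 to 13.5, 10.2 and 22.2 (log2 fold change -5.38, SE 0.43, adjusted p = 1.58e-06). All LPS libraries were below all untreated ones for these genes. Cd163 (1689.7, 1622 and 1665 and 1149.6, 1187 and 1318, log2 fold change -0.45, SE 0.19, adjusted p = 0.107), F13a1 (-0.32) and Clec12a (0.48) were not called. Cd38, an enzyme that consumes NAD, went up, from 864, 543 and 653 to 6371, 5464 and 5081 (log2 fold change 3.04, SE 0.19, adjusted p = 1.89e-07), as did the sialic acid lectin Siglec1 (1.08).

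Transcription factors of macrophage identity moved in both directions, 9 of 27 higher and 5 lower. Mef2c lay at 770.2, 742 and 704 and 82.8, 95.2 and 70.4 (log2 fold change -3.16, SE 0.21, adjusted p = 2.93e-07) and Maf at 949, 892 and 829 and 193, 188 and 217 (log2 fold change -2.16, SE 0.21, adjusted p = 9.81e-06). Cebpb, a factor of the acute inflammatory programme, went from 57.7, 77.8 and 73.4 to 679, 589.9 and 667 (log2 fold change 3.21, SE 0.20, adjusted p = 2.44e-07). Batf (2.77), Id2 (4.30) and Klf4 (2.46) rose, Mef2a (-1.17), Mitf (-1.57) and Bhlhe41 (-3.00) fell, and Spi1 (0.87), Runx1 (-0.33) and Zeb2 (-0.10) were not called. The adjusted p of Mitf was 0.0805 to 0.117 without any 1 of 3m, 5f, V1m or V2m.

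**Figure D4:**
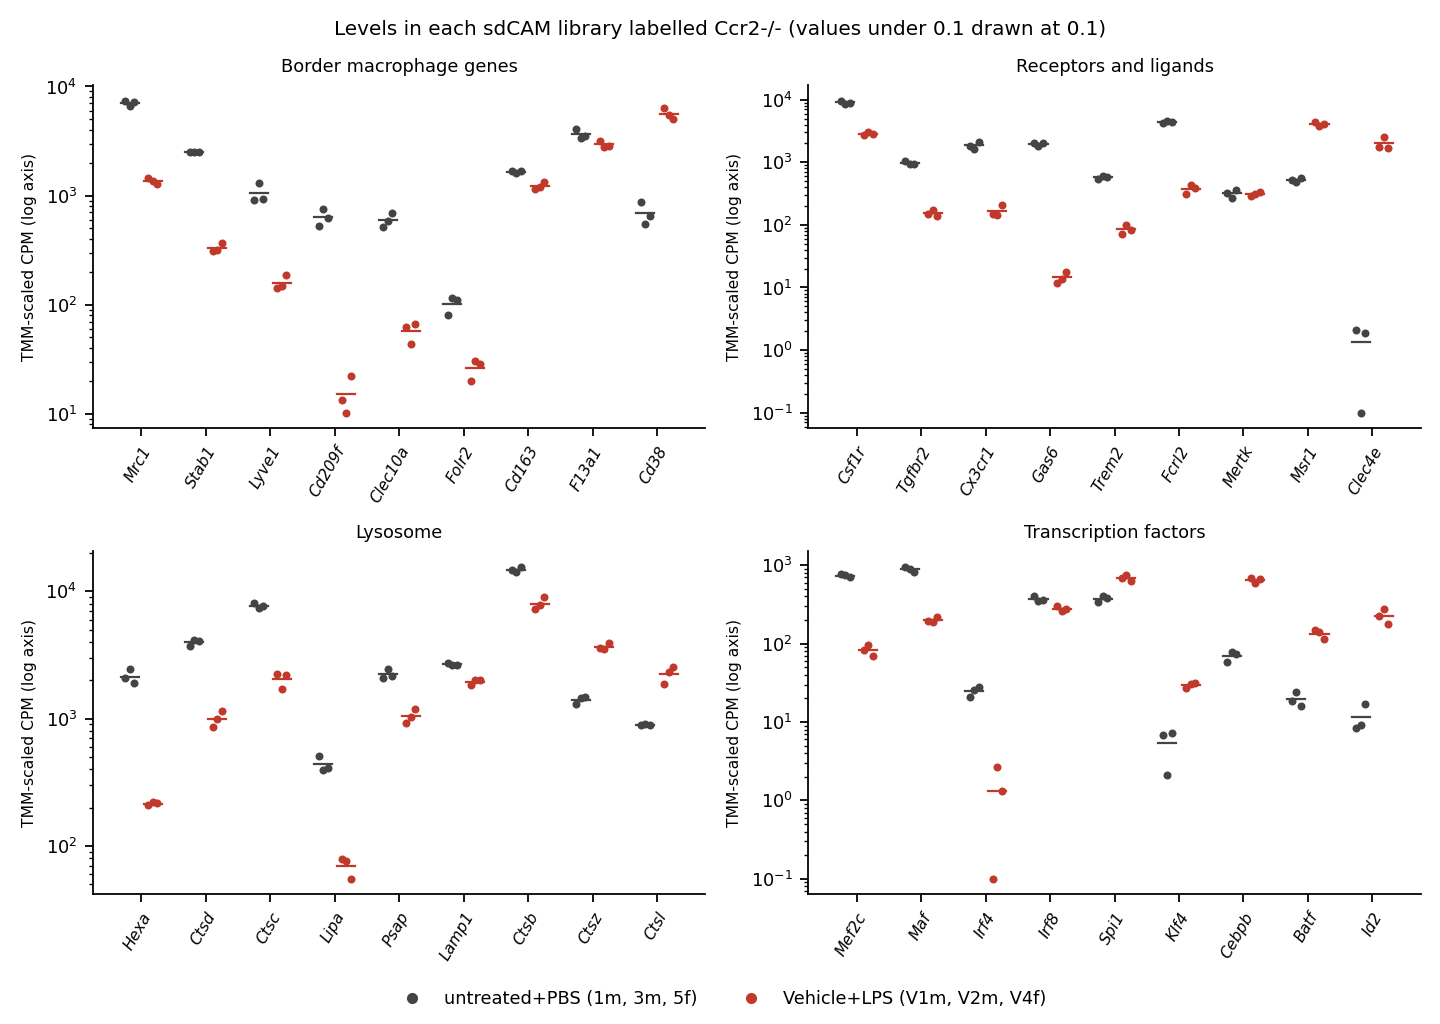
Points are single sdCAM libraries labelled Ccr2-/-, 3 untreated+PBS (dark) and 3 Vehicle+LPS (red), with the group mean as a bar, for 36 genes in 4 panels (normalised CPM, log axis, values under 0.1 drawn at 0.1). Mrc1, Stab1, Cd209f, Gas6, Hexa and Mef2c lie lower in every LPS library than in every untreated one, Cd38, Msr1, Clec4e, Ctsz and Cebpb lie higher, and the groups of Mertk overlap.

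Genes of receptors and bridging proteins for dead cells fell in 9 of 23 tested members and rose in 3 (median log2 fold change -0.87). Gas6, a bridge between phosphatidylserine and the TAM receptors, lay at 2046, 1802 and 2026 without LPS and 11.8, 13.9 and 17.8 after it (log2 fold change -7.08, SE 0.68, adjusted p = 7.9e-06). Its relative Pros1 (-2.06), Cd36 (-3.02) and Trem2 (-2.78) fell, while the receptors Mertk (326, 268 and 362 and 294, 308 and 341, log2 fold change -0.02, SE 0.15, adjusted p = 0.942) and Axl (0.59) were not called. Msr1, the class A scavenger receptor, rose from 521, 489 and 571 to 4451, 3838 and 4048 (log2 fold change 2.97, SE 0.13, adjusted p = 1.52e-08), and Cd300lf rose by 7.33 on the log2 scale.

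C-type lectin receptors exchanged members: 4 of 15 rose and 8 fell. Clec4e, the receptor Mincle for mycobacterial glycolipids, was at 2.08, 0 and 1.91 without LPS and 1751, 2539.6 and 1704 after it (log2 fold change 10.51, SE 0.56, adjusted p = 7.4e-08). Clec4d, which pairs with it, rose by 6.81 on the log2 scale. Clec7a, the beta-glucan receptor dectin-1, went the opposite way, from 182, 118 and 119 to 5.76, 3.69 and 2.76 (log2 fold change -5.10, SE 0.37, adjusted p = 8.2e-07), and Clec10a (-3.37), Mgl2 (-3.49) and Cd209b (-3.19) fell too, beside the lower dendritic cell list given above. Of 8 Fc receptor genes 3 rose and 2 fell. Fcgr4 went from 23.8, 20.2 and 25.6 to 1100.0, 1057 and 1220.3 (log2 fold change 5.60, SE 0.23, adjusted p = 1.08e-08), the inhibitory Fcgr2b (1.08) and the shared chain Fcer1g (1.40) rose, Fcgrt, the neonatal Fc receptor that recycles antibody, fell from 1291, 1224 and 1332 to 131, 125 and 152 (log2 fold change -3.23, SE 0.24, adjusted p = 9.96e-07), and Fcgr3 was not called (-0.02). In the Ms4a cluster of membrane proteins 7 of 9 members rose (median log2 fold change 2.30). Ms4a4c went from 27.1, 46.5 and 28 to 834, 769 and 833 (log2 fold change 4.58, SE 0.23, adjusted p = 4.08e-08), and Ms4a7 was the member that fell (-1.04).

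Lysosomal genes fell in 18 of 40 members and rose in 2, with a median log2 fold change of -0.82. Hexa, a subunit of beta-hexosaminidase, lay at 2072, 2441 and 1901 normalised CPM without LPS and 209, 219.9 and 217 after it (log2 fold change -3.31, SE 0.16, adjusted p = 2.68e-08). Ctsd, the main aspartic protease, went from 3722, 4156 and 4074 to 854, 986 and 1141 (log2 fold change -2.00, SE 0.14, adjusted p = 5.96e-07), and Lipa, the acid lipase, from 513, 393 and 406 to 78.5, 75.8 and 55.2 (log2 fold change -2.65, SE 0.21, adjusted p = 1.73e-06). The groups were apart in all 3. Man2b1 (-2.51), Ctsf (-2.81), Ctsc (-1.92) and Psap, the precursor of the saposins (-1.10), fell, and the membrane proteins Lamp1 (-0.46) and Lamp2 (-0.29) and the protease Ctsb (-0.88) were not called. The proteases Ctsz and Ctsl rose, Ctsz from 1298, 1443 and 1492 to 3575, 3501 and 3924 (log2 fold change 1.38, SE 0.13, adjusted p = 5.71e-06) and Ctsl by 1.33 on the log2 scale.

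Complement genes were 6 higher and 6 lower of 19. C3 lay at 20.2, 17.6 and 11 and 404, 209 and 273 (log2 fold change 4.18, SE 0.30, adjusted p = 7.39e-07), and Cfb, the protease of the alternative pathway, at 0.31, 1.04 and 0 and 36.4, 30.1 and 32.5 (log2 fold change 6.17, SE 0.63, adjusted p = 1.32e-05). C4b (-1.42) and C1qc (-1.10) fell, whereas C1qa (-0.92) and C1qb (-0.08) were not called. Of 12 selenoprotein genes 4 rose and 2 fell. Selenop, which carries selenium out of the cell, fell by 3.34 on the log2 scale, while the selenoproteins Txnrd1 (2.31), Selenow (2.26) and Msrb1 (2.37) rose and Gpx4 was not called (0.09).

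Metabolic genes of activated macrophages were higher. Acod1, which makes itaconate, had no count without LPS, lay at 439, 705 and 396 after it and was at least 1540.0-fold higher. Slc7a2, an arginine transporter, went from 0.52, 0.58 and 2.48 to 1041, 649.6 and 599 (log2 fold change 9.32, SE 0.47, adjusted p = 4.08e-08). Nos2, the inducible nitric oxide synthase, and Arg1, which competes with it for arginine, were called higher but stayed low, at 1.31, 1.05 and 2.64 and 4.32, 2.74 and 4.56 normalised CPM after LPS, and the adjusted p of Nos2 was 0.0732 to 0.0862 without any 1 of 1m, 3m or V4f. Of the list of 11 genes 8 rose and 1 fell (median log2 fold change 4.05, or 3.09 at the bounds).

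Glycolytic genes rose in 13 of 24 tested members and fell in 0 (median log2 fold change 1.37). Pkm, pyruvate kinase, lay at 71.4, 77.9 and 77.6 and 514, 417 and 656 (log2 fold change 2.81, SE 0.26, adjusted p = 6.05e-06), and Pfkfb3, which makes an activator of phosphofructokinase, at 39.6, 23.4 and 25.8 and 496, 522 and 552 (log2 fold change 4.14, SE 0.32, adjusted p = 1.12e-06). Hif1a, the hypoxia-inducible factor, went from 116, 116 and 123 to 605, 676 and 538 (log2 fold change 2.36, SE 0.26, adjusted p = 2.05e-05). The glucose transporter Slc2a1 (2.31), Pfkl (2.35), Gapdh (1.77), Pgk1 (2.42) and Ldha (1.58) rose, and the hexokinases Hk1 (-0.79), Hk2 (0.19) and Hk3 (-0.55) were not called.

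Iron genes changed at storage and export, with 6 of 16 tested members higher and 4 lower. Fth1, the heavy chain of ferritin, lay at 3998, 3858 and 4148 normalised CPM without LPS and 30309.5, 28594 and 31745 after it (log2 fold change 2.92, SE 0.13, adjusted p = 1.72e-08), while the light chain Ftl1 was not called (981, 933 and 944 and 528, 675 and 659, log2 fold change -0.62, SE 0.15, adjusted p = 0.00693). Slc40a1, the exporter ferroportin, went from 1092, 787 and 993 to 18.2, 33 and 27.4 (log2 fold change -5.19, SE 0.50, adjusted p = 7.76e-06). The 3 libraries after LPS were apart from the 3 without it for Fth1 and Slc40a1. The metalloreductase Steap4 (9.34), ceruloplasmin Cp (2.84) and the transporters Slc11a1 (1.84) and Slc11a2 (2.18) rose, Blvrb fell (-2.78), and the transferrin receptor Tfrc was not called (0.00).

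The metal-binding metallothioneins Mt1 and Mt2 rose, Mt1 from 123, 111 and 133 to 1594, 1751 and 1607 (log2 fold change 3.75, SE 0.23, adjusted p = 1.98e-07) and Mt2 from 1.04, 1.04 and 1.35 to 354, 306 and 317 (log2 fold change 8.14, SE 0.40, adjusted p = 2.99e-08). Slc39a14, an importer of zinc and iron, went from 3.74, 17.3 and 7.88 to 206, 185 and 220.4 (log2 fold change 4.41, SE 0.43, adjusted p = 8.44e-06). Of the 12 genes of this list 4 rose and 1 fell. The promoters of Mt1 and Mt2 are shown because both genes rose and both promoters hold the metal response element searched for (TGCACNC or TGCGCNC on either strand, 250 bases before the start). The Mt2 stretch is chr8:94172380-94172589 (plus strand, bases 238 to 29 before the start, 3 matches) and the Mt1 stretch chr8:94179051-94179087 (plus strand, bases 38 to 2, 1 match).
Mt2: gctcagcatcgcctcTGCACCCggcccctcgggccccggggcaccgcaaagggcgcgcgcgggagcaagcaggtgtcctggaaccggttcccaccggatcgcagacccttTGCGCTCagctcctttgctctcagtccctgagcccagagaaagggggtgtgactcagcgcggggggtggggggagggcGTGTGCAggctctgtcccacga
Mt1: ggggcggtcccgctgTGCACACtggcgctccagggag
Of the 4 members that rose 3 matched a promoter entry and 2 of these held the motif, as did 2 of 6 matched members not called. These letters are common: 23.8% of all genes with a promoter entry held them, 29.2% of the matched genes called higher and 37.1% of those called lower.

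Genes that respond to glucocorticoids rose in 12 of 14 tested members and fell in 0, with a median log2 fold change of 4.10. Fkbp5, a chaperone of the receptor, lay at 29.2, 28.4 and 40.8 and 657, 626 and 719 (log2 fold change 4.35, SE 0.27, adjusted p = 1.84e-07), and Tsc22d3, which encodes GILZ, at 156, 269 and 340.3 and 1469, 1376 and 1571 (log2 fold change 2.53, SE 0.23, adjusted p = 4.87e-06). Per1 (3.12), Zbtb16 (5.10), Sgk1 (2.52), Klf9 (3.01), Cdkn1a (4.34) and Map3k6 (4.73) rose. The receptor gene Nr3c1 was not called (-0.41). Several of these genes also answer other stimuli, and no hormone was measured.

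Prostaglandin and leukotriene genes split by step, 7 of 18 higher and 6 lower. Ptges, the inducible prostaglandin E synthase, was at or under 3 counts in each untreated library and at 184, 225 and 276 after LPS, at least 687-fold higher. Ptgs2, cyclooxygenase 2, went from 0.1, 0.46 and 0 to 25.6, 6.85 and 13.3 (log2 fold change 6.25, SE 0.97, adjusted p = 0.000379), and Ptgs1, its constitutive relative, from 316, 347 and 348 to 99.2, 77.2 and 107 (log2 fold change -1.84, SE 0.17, adjusted p = 5.01e-06). Hpgd, which inactivates prostaglandins, fell from 1349, 1098 and 1229.5 to 21.7, 27.3 and 23.2 (log2 fold change -5.67, SE 0.42, adjusted p = 8.95e-07). The leukotriene C4 synthase Ltc4s (-5.24), Alox5 (-1.87), the thromboxane synthase Tbxas1 (-3.33) and the prostaglandin D synthase Hpgds (-2.67) fell too. The prostaglandin E receptors Ptger2 (at least 131-fold) and Ptger4 (1.76) were higher.

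Purinergic receptors exchanged members as well, 4 of 14 higher and 6 lower. The adenosine receptors Adora2a and Adora2b were close to 0 without LPS and lay at 27.1, 56.2 and 33.6 and 70.4, 56 and 87.4 after it (6.45 and 6.07 on the log2 scale), and P2ry2 was at least 142-fold higher. P2ry12 (-3.26), P2ry13 (-2.39), Gpr34 (-4.13) and the ectonucleotidase Entpd1 (-2.71) fell. P2ry12 is a microglial marker, and the microglial signal in these libraries is given above. Sterol genes had 3 of 24 higher (12.5%) and 5 lower (20.8%), or 2 lower without 5f and 3 without V2m. Over all genes tested the shares were 10.9% higher and 10.6% lower. Apoe lay at 39294, 41685 and 36475 and 11049, 14289.6 and 12180.1 (log2 fold change -1.65, SE 0.12, adjusted p = 6.03e-07), the exporter Abca1 fell (-1.62), Ch25h, which makes 25-hydroxycholesterol, rose (3.73), and the synthesis genes Hmgcs1 (-0.05) and Sqle (0.44) were not called.

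TGF-beta signalling genes fell in 6 of 17 tested members and rose in 0 (median log2 fold change -0.56). The receptor Tgfbr2 lay at 1060.5, 936 and 946 and 149, 171 and 138, a fall of 2.68 on the log2 scale, and Tgfbr1 (-1.47), the ligand Tgfb1 (-1.08) and Nrros, which anchors it (-1.30), fell too. Smad2, Smad3 and Smad4, which carry the signal to the nucleus, were not called. Matrix-degrading enzymes and their inhibitors rose in 10 of 17 and fell in 3 (median 4.14). Mmp14, a membrane-bound collagenase, went from 34.9, 46.2 and 24 to 1396, 1612 and 1189 (log2 fold change 5.32, SE 0.27, adjusted p = 4.17e-08), and Mmp19 rose by 6.12 on the log2 scale. Timp1, an inhibitor, rose from 0 in each untreated library to 93.1, 77.7 and 78.8, while Timp2 fell from 922, 1016 and 845 to 129, 147 and 162 (log2 fold change -2.67, SE 0.19, adjusted p = 6.47e-07). Plau, the activator urokinase, was at 40.7, 26.3 and 21.2 without LPS and at or under 3 counts per library after it, at least 82.6-fold lower, while its receptor Plaur rose (5.01).

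Adhesion genes had 8 of 21 higher and 4 lower. Cd44 went from 0.52, 15 and 8.33 to 297, 277 and 277 (log2 fold change 5.17, SE 0.65, adjusted p = 7.01e-05). Itgam (2.53), Itgal (3.65), Itga5 (3.35) and Icam1 (2.03) rose, and Itga4 (-1.92), Itga6 (-1.66) and Itgb5 (-1.71) fell. Immediate early genes, which also rise while cells are prepared, had 7 of 16 tested members higher and 0 lower. Fos lay at 33.1, 73.5 and 107 without LPS and 178, 182 and 187 after it (log2 fold change 1.36, SE 0.32, adjusted p = 0.00641), and Jun (0.31) and Egr1 (0.34) were not called. Of 18 cell cycle genes tested 1 rose (the inhibitor Cdkn1a) and 2 fell (Cenpf and Ccnd1), and Mki67 stayed between 0.81 and 5.37 normalised CPM in all 6 libraries. These shares (5.56% and 11.1%) stand beside 10.9% and 10.6% over all genes tested. Of 13 heat shock chaperones tested 0 were called at this threshold, 2 had an unadjusted p below 0.05 in edgeR, and library 3m was the highest untreated one for Hspa5, Hspa8, Hsp90aa1 and Hsp90ab1.

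By p-value the genes at the head of the ranking included several outside these lists. Among those that rose, the mitochondrial superoxide dismutase Sod2 lay at 51.7, 54.3 and 42.9 and 2575, 2690.2 and 2425 (log2 fold change 5.69, SE 0.16, adjusted p = 3.89e-10), the paired receptor Pilra at 4.47, 5.11 and 4.84 and 399, 417 and 472 (log2 fold change 6.48, SE 0.18, adjusted p = 3.89e-10) and the long noncoding RNA AW112010 at 66.4, 75.7 and 47.7 and 2806, 3035 and 2188 (log2 fold change 5.40, SE 0.21, adjusted p = 8.38e-09). Genes were taken from this ranking only where the groups did not overlap, so the lack of overlap follows from the choice. The inhibitory receptor Pirb (3.90) and the dicarboxylate transporter Slc13a3 (5.14) followed. Among those that fell, the sodium-proton exchanger Slc9a9 lay at 994, 816 and 974 and 23.8, 27.5 and 11.4 (log2 fold change -5.47, SE 0.30, adjusted p = 7.4e-08), and the endothelin receptor Ednrb at 571, 318 and 441 and 18.2, 21.8 and 14.4 (log2 fold change -4.61, SE 0.26, adjusted p = 9.18e-08). Ighm, an immunoglobulin heavy chain, fell by 4.58 on the log2 scale, St8sia4, a polysialic acid transferase, by 5.02, the aldehyde dehydrogenase Aldh2 by 3.26 and Itm2b by 2.35.

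The microglia of the same 6 mice allow a test of whether the response differed between the 2 populations. In an edgeR fit over the sdCAM and MG libraries labelled Ccr2-/- the difference in log2 fold change (sdCAM minus MG) was called for 6.88% of 12890 genes, 371 (2.88%) with the higher and 516 (4%) with the lower value in sdCAMs. With library totals alone as the scaling 254 of 1110 called genes had the higher value in sdCAMs, 22.9% against 41.8% here. The levels in this paragraph and the next come from that joint fit.

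Among the genes with the higher value in sdCAMs, Slamf9 rose in sdCAMs and was not called in MG: it lay at 38.3, 47.8 and 40 normalised CPM in untreated sdCAMs and 285, 473 and 387 after LPS, and at 179.6, 105 and 151 and 98.6, 109.9 and 105 in MG (difference 3.66, SE 0.34, adjusted p = 1.32e-06). Cnn2, an actin-binding calponin, went from 12.2, 23.9 and 30.1 to 181, 244 and 204 in sdCAMs and from 23.4, 33.1 and 24 to 15.7, 12.6 and 11.2 in MG (difference 4.28, SE 0.40, adjusted p = 1.32e-06). The inflammasome adaptor Pycard went from 61.2, 68.3 and 56.1 to 241, 233 and 326 and from 175, 170.3 and 157 to 161, 135 and 177 (difference 2.20, SE 0.23, adjusted p = 4e-06). In MG the groups overlapped for Pycard. Sgms1, a sphingomyelin synthase (2.99), Hcls1 (2.16), Itgam (2.30), Tnip1 (2.43), Slc13a3 (2.61), Fbxl5, an iron-sensing ubiquitin ligase subunit (1.90), and Maged2 (3.35) also had the higher value in sdCAMs. Maged2 differed through MG, where it fell (-2.48 on the log2 scale), while in sdCAMs it was not called (0.84).

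Among the genes with the lower value in sdCAMs, some had a high resting level there and were induced in MG. Gpr65, a proton-sensing receptor, lay at 101, 117 and 90 and 118, 108 and 97.7 in sdCAMs and rose from 6.98, 8.16 and 9.85 to 279, 256 and 328 in MG (difference -5.04, SE 0.26, adjusted p = 1.08e-09). Ccl12 behaved likewise, at 422, 712 and 475 and 791, 627 and 657 in sdCAMs and 107, 62.1 and 91.9 and 2701, 1862 and 2351 in MG (difference -4.36, SE 0.31, adjusted p = 6.8e-08). Ctsc, an activator of serine proteases, went in opposite directions, from 8571, 7835 and 7993 down to 2339, 1817 and 2401 in sdCAMs and from 1409.8, 1556 and 1359.9 up to 4269.9, 3119 and 4720.2 in MG (difference -3.38, SE 0.24, adjusted p = 6.8e-08). The same held for Tgfbi, called lower in sdCAMs and higher in MG (-3.47), and for Dab2 (-5.24) and C4b (-4.82). Ms4a4a rose in both with the larger log2 fold change in MG (-6.20), as did Ms4a6c (-3.33) and Siglec1 (-4.77). In untreated MG Ms4a4a (0.52, 0.18 and 0.12) and Siglec1 (1.25, 0.54 and 0.46) lay near 0, and the size of their difference depends on these low levels. After LPS both stayed lower in MG, at a mean of 105 against 2688 in sdCAMs for Ms4a4a and 44.5 against 597 for Siglec1. Fcrl2 fell by 3.55 on the log2 scale in sdCAMs and stayed under the fold limit in MG (-0.74, difference -2.77). Gatm (-2.48) and Hgsnat (-2.805) also fell in sdCAMs, but in MG they moved up, under the fold limit (0.72 and 0.73, differences -3.17 and -3.50). These differences bear on the 2 sorted populations, and the microglial signal in the sdCAM libraries is given above.

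**Figure D5:**
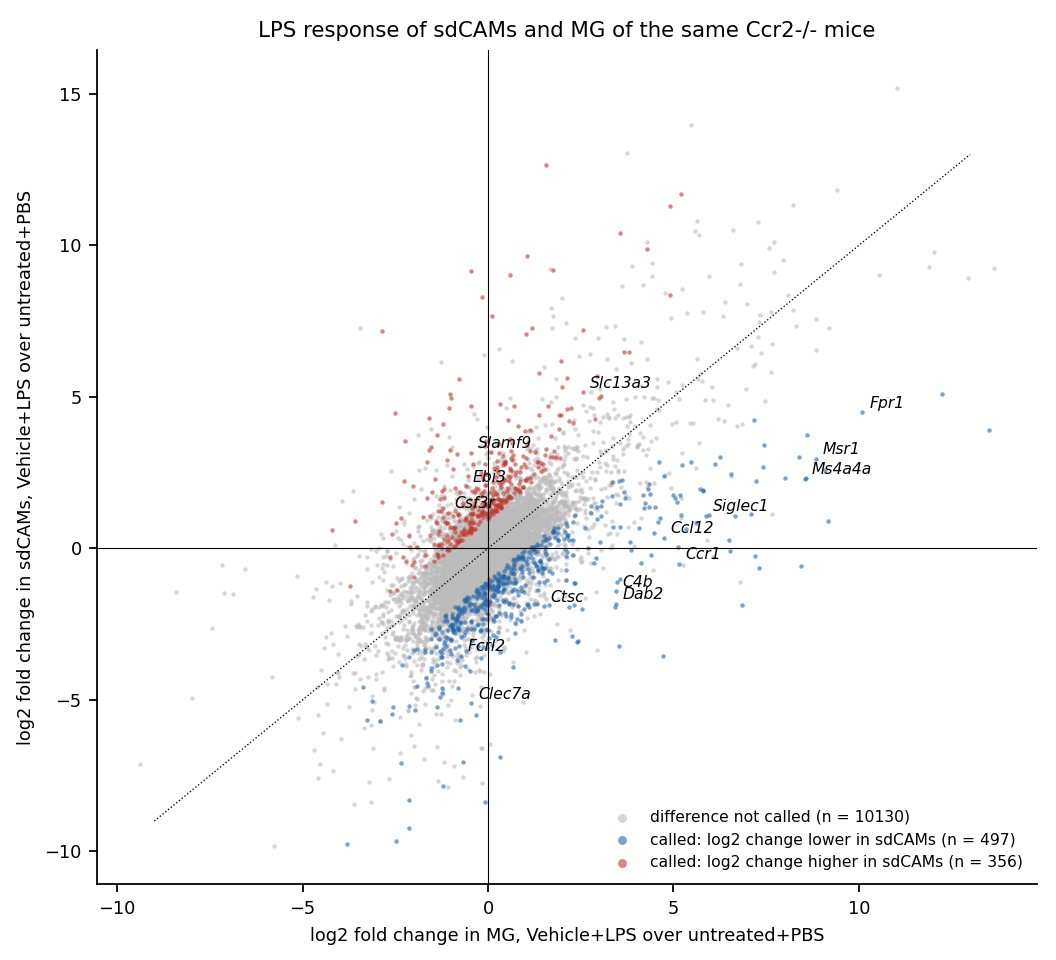
Each point is 1 of 10983 genes tested in both populations, with the log2 fold change of Vehicle+LPS over untreated+PBS in MG on the x axis and in sdCAMs of the same mice on the y axis, and the dotted line marks equal change. Red points (356) were called for a higher value in sdCAMs and blue points (497) for a lower one, with Ctsc, Dab2 and C4b below 0 in sdCAMs and above 0 in MG.

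Whether the response differs from that of WT sdCAMs was tested as the difference in log2 fold change between genotypes (Ccr2-/- minus WT, edgeR over 18 sdCAM libraries). Among 13258 genes the calls numbered 0, while 1792 had an unadjusted p below 0.05, and DESeq2 called 247. The WT libraries were shallower, with 1929070 to 3049028 counts without LPS and 2386672 to 7699790 after it, and 5 of the 6 carry the submitters' mark for a correction of immediate early genes, which no Ccr2-/- library carries. In simulated data of this design the test recovered 11.6% of genes made to differ by 2 on the log2 scale and 46% of those made to differ by 4, so differences of that size were often not detectable at this depth and spread. Side by side, the log2 fold changes were 9.03 in Ccr2-/- and 9.52 in WT for Il1rn, 9.92 and 10.38 for Saa3, 0.35 and 4.78 for Ccl12, -2.37 and -2.09 for Mrc1 and -3.31 and -2.63 for Hexa. In other genes the WT value was smaller in size, as in Apoe (-1.65 and -0.02), Lyve1 (-2.72 and -0.67) and Clec10a (-3.37 and -0.45). In Pf4 it had the other sign (-1.20 and 2.02). None of these differences between genotypes was called in edgeR. The pairs are examples and do not show how often the genotypes were alike. For Ccl12 neither the WT change nor the difference between genotypes was called (edgeR, adjusted p = 0.0962 and 0.221). Its WT libraries after LPS were uneven, at 21213, 6019 and 25482 normalised CPM. Differences between genotypes and between the 2 tables of libraries cannot be told apart.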

How the data were processed

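Bulk RNA-seq libraries of flow-sorted sdCAMs and MG were analysed from the gene count tables that the authors deposited, 1 for WT and 1 for Ccr2-/- mice. The deposited counts are whole-number reads per gene symbol (33280 symbols), neither normalised nor filtered. According to the study's methods, RNA was amplified with SMARTer chemistry, made into libraries with Nextera XT and sequenced as single reads on a HiSeq 1000. The submitters' processing notes name bcl2fastq 2.20, STAR 2.7.11a, featureCounts 2.0.8 and DESeq2 1.46.0. The annotation and strand setting used in counting are not given clearly in the sources used here, so overlapping genes, antisense partners and near-identical family members may share reads. No molecular identifiers were used, and limits based on counts cover counting error only.

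Libraries were assigned to populations by their library name. The members and gene lists were chosen with earlier results of these data known. Each gene was tested with edgeR 4.0.16 (R 4.3.3): filterByExpr, TMM scaling, glmQLFit over the 9 sdCAM libraries labelled Ccr2-/- (the 3 of the inhibitor group add to the estimate of spread) and glmQLFTest of the contrast, with Benjamini-Hochberg adjustment over all genes tested. The standard error is the log2 fold change divided by the square root of F. The test was tried on simulated data of this design, where it recovered 61.5% of genes changed by 2 and 86.5% of genes changed by 4 on the log2 scale among 11500 genes. The difference in response between populations was fitted over the 18 libraries of both populations, and that between genotypes over 18 sdCAM libraries. Each library came from 1 mouse, and p-values measure the spread between these mice.

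Genes named are Ccr2, members of the lists and up to 12 calls in each direction of the LPS response. Those 12 had the smallest p among genes with a group mean of at least 10 normalised CPM and no overlap between the groups. Up to 10 calls in each direction of each difference in response were named too. Promoters come from RefSeq (GRCm38.p6), up to 3 genes per motif by number of matches. Alternatives were DESeq2 1.42.0, other scaling factors, other low-count rules, removal of gene classes, no fold limit, other libraries in the fit, the letter m or f in the library name as a covariate, the mark for an immediate early gene correction as a covariate, and leaving out each library. An sdCAM and an MG library of the same name come from the same mouse, which pairs them, and the correlation of their deviations from the group means was -0.024 to 0.157 over 9 mice. The fit with the mouse as a replicate block was run as an alternative. A few list members are counted with their lists but not reported singly here. The Ccr2CreERT2 libraries and the libraries given the inhibitor were not compared here. Figures were drawn with matplotlib 3.10.9.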

Additional observations from a re-analysis of the deposited data

Results flagged for a closer look

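The difference in LPS response between sdCAMs and MG of the same Ccr2-/- mice was called for 887 genes in edgeR's test of the difference itself, and the genes named for it are listed here by that difference (log2 fold change in sdCAMs minus that in MG). It was above 0 for Cnn2 (4.28), Slamf9 (3.66), Maged2 (3.35), Sgms1 (2.99), Slc13a3 (2.61), Tnip1 (2.43), Itgam (2.30), Pycard (2.20), Hcls1 (2.16) and Fbxl5 (1.90). It was below 0 for Fcrl2 (-2.77), Gatm (-3.17), Ms4a6c (-3.33), Ctsc (-3.38), Tgfbi (-3.47), Hgsnat (-3.50), Ccl12 (-4.36), Siglec1 (-4.77), C4b (-4.82), Gpr65 (-5.04), Dab2 (-5.24) and Ms4a4a (-6.20). With 3 libraries in each group, no library was tested for lying apart from its group. The sdCAM libraries carry a microglial signal whose part in these differences was not tested.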

How the results depend on the processing

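The number of genes called after LPS stayed between 2434 and 2896 under DESeq2, other scaling factors, other low-count rules, removal of gene classes, other libraries in the fit or the letter m or f as a covariate, was 3443 with no fold limit, and was 2213 to 2335 without 1 of the 6 libraries; 1736 of the 2569 calls (67.6%) were made in all 6 of those fits. None of the 342 genes named for the response changed direction with a call under any alternative. With library totals alone as the scaling, the median log2 fold change of all genes was -0.195 in place of -0.045, 41.5% of the calls in place of 50.7% were higher, and Ccl2, Ccl7, Fcgr2b, Irf1, Irf2, Nfkbie, Siglec1 and Stat3 were not called. Near the fold limit, Siglec1 was not called without 1m (0.997), Ms4a7 without 3m (-0.94), nor Psap and Cbr2 without V1m (-0.98 and -0.99), and Tirap had an adjusted p of 0.0523 without V1m.

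The difference between populations gave 839 to 1168 calls in place of 887 under the other settings and 700 to 807 without 1 library. With the mouse as a replicate block it gave 828 calls, 747 of them (84.2%) shared with the fit without the block, and no named gene lost its call. The difference between genotypes was called for 0 genes, for 247 with DESeq2, for 1 with library totals alone, for 350 with only the 12 libraries compared in the fit, for 33 with the immediate early gene mark as a covariate and for 0 to 1 without 1 library; the cause was not tested.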
